A study of Mus musculus with 12 samples.

Results

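The transcripts described here encode the mitochondrial machinery that burns fatty acids: 30 genes, from the carnitine shuttle that brings acyl chains into the matrix to the propionyl-CoA enzymes that finish odd chains. They were chosen by name, as a list of genes in the count table, with the requirement of 10 or more counts in 2 or more libraries. All 30 met it, out of 17090 genes in the table and 12762 that met the same requirement. RNA was sequenced from MTΔECad, a mouse breast cancer line of mesenchymal type, as it was driven towards adipocytes. All groups were the same line, for which the labels used here give no genotype beyond the name, and they differed in time and agent. The 0 h group was taken at the start of the protocol, and the 6 h and day 3 groups belong to its first phase, with BMP2, a growth factor, at 200 ng/ml. The day 5 and day 7 groups belong to a second phase of 4 days in which 2 µM rosiglitazone, an agonist of the nuclear receptor PPARγ, was given together with BMP2, and the day 10 group to a last phase of 3 days with rosiglitazone alone. Each time point had 2 libraries, and the labels state that RNA came from 2 independent experiments. No untreated cells kept for the same time were analysed here, so time in culture and treatment cannot be told apart. Libraries held between 12820802 and 17570366 counts, and paired libraries of 1 time point correlated at 0.992 (day 3) to 0.995 (0 h) in log2 CPM.

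Mitochondrial beta-oxidation shortens an acyl-CoA by repeated rounds of dehydrogenation, hydration, a further dehydrogenation and thiolytic cleavage. Each round yields acetyl-CoA and passes electrons to the respiratory chain through NADH and through the electron transfer flavoprotein. White fat cells mainly store and release fatty acids, whereas brown and beige fat, heart, muscle and liver are the tissues best known for oxidizing them. Many genes of the pathway are known targets of nuclear receptors of the PPAR family.

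The promoter windows of 3 genes are shown because these genes mark the range of the results: Acadm rose most, Hadhb lies head to head with Hadha, and Acot2 was the 1 gene that fell from day 3 to day 5. Each window runs from 250 bases before to 50 bases after the annotated start and is printed 5′ to 3′ on the gene's strand, from RefSeq on GRCm38.p6. Acadm is at chr3:153944594-153944893 on the minus strand, with the nuclear receptor core motif in capitals, here as the reverse complement of AGGTCA. Hadhb is at chr5:30155003-30155302 on the plus strand, with capitals for the 228 bases that the window of Hadha also covers. Acot2 is at chr12:83987611-83987910 on the plus strand, with the CCAAT box in capitals, here as its reverse complement.
Acadm: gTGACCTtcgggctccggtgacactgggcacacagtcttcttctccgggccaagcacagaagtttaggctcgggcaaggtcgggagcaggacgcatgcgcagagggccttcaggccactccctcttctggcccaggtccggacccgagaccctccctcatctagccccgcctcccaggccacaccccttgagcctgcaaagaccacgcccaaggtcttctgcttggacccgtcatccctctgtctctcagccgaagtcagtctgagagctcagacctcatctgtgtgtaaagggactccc
Hadhb: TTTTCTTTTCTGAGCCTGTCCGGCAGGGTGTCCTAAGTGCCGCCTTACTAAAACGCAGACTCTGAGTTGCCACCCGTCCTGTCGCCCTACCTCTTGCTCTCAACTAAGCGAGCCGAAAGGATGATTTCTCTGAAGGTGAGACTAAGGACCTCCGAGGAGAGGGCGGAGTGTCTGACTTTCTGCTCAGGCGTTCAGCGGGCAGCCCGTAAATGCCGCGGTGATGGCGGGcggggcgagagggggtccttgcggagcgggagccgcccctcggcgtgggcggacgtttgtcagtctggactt
Acot2: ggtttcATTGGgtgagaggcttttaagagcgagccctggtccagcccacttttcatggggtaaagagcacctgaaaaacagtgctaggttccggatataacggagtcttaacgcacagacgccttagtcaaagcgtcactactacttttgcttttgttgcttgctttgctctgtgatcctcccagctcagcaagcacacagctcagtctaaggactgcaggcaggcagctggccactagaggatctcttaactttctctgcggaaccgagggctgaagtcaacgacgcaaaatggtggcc

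Over the whole protocol, from 0 h to day 10, all 30 genes rose and none fell. The background in that comparison was 42.8% of 12740 genes called higher and 39.9% called lower by edgeR's quasi-likelihood test at a Benjamini-Hochberg adjusted p below 0.05. The median log2 fold change was 3.17 for the 30 genes and 0.06 for all genes tested. At least a 2-fold rise was seen in 28 of the 30 (27.3% of all genes), at least 8-fold in 17 (9.97% of all genes) and at least 16-fold in 8 (6.90%). All 30 also differed between time points in the joint test, as did 94.7% of all genes. Summed over the 30 genes, the level was 1222 and 1235 library-scaled counts (CPM) in the 0 h libraries, 1195 and 1199.9 at 6 h, and 1654 and 1533 on day 3. It was then 9184 and 8438 on day 5, 13044 and 12524 on day 7, and 12459.8 and 12810.3 on day 10. The sum thus stayed at one level to 6 h, was modestly higher on day 3, and took its main step between day 3 and day 5. The mean on day 10 was 10.3 times that at 0 h. The genes held 0.130% and 0.131% of all counts at 0 h, and 1.16% and 1.15% on day 7. These are bulk measurements, in which fewer cells of a type and less RNA per cell cannot be told apart.

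**Figure D1:**
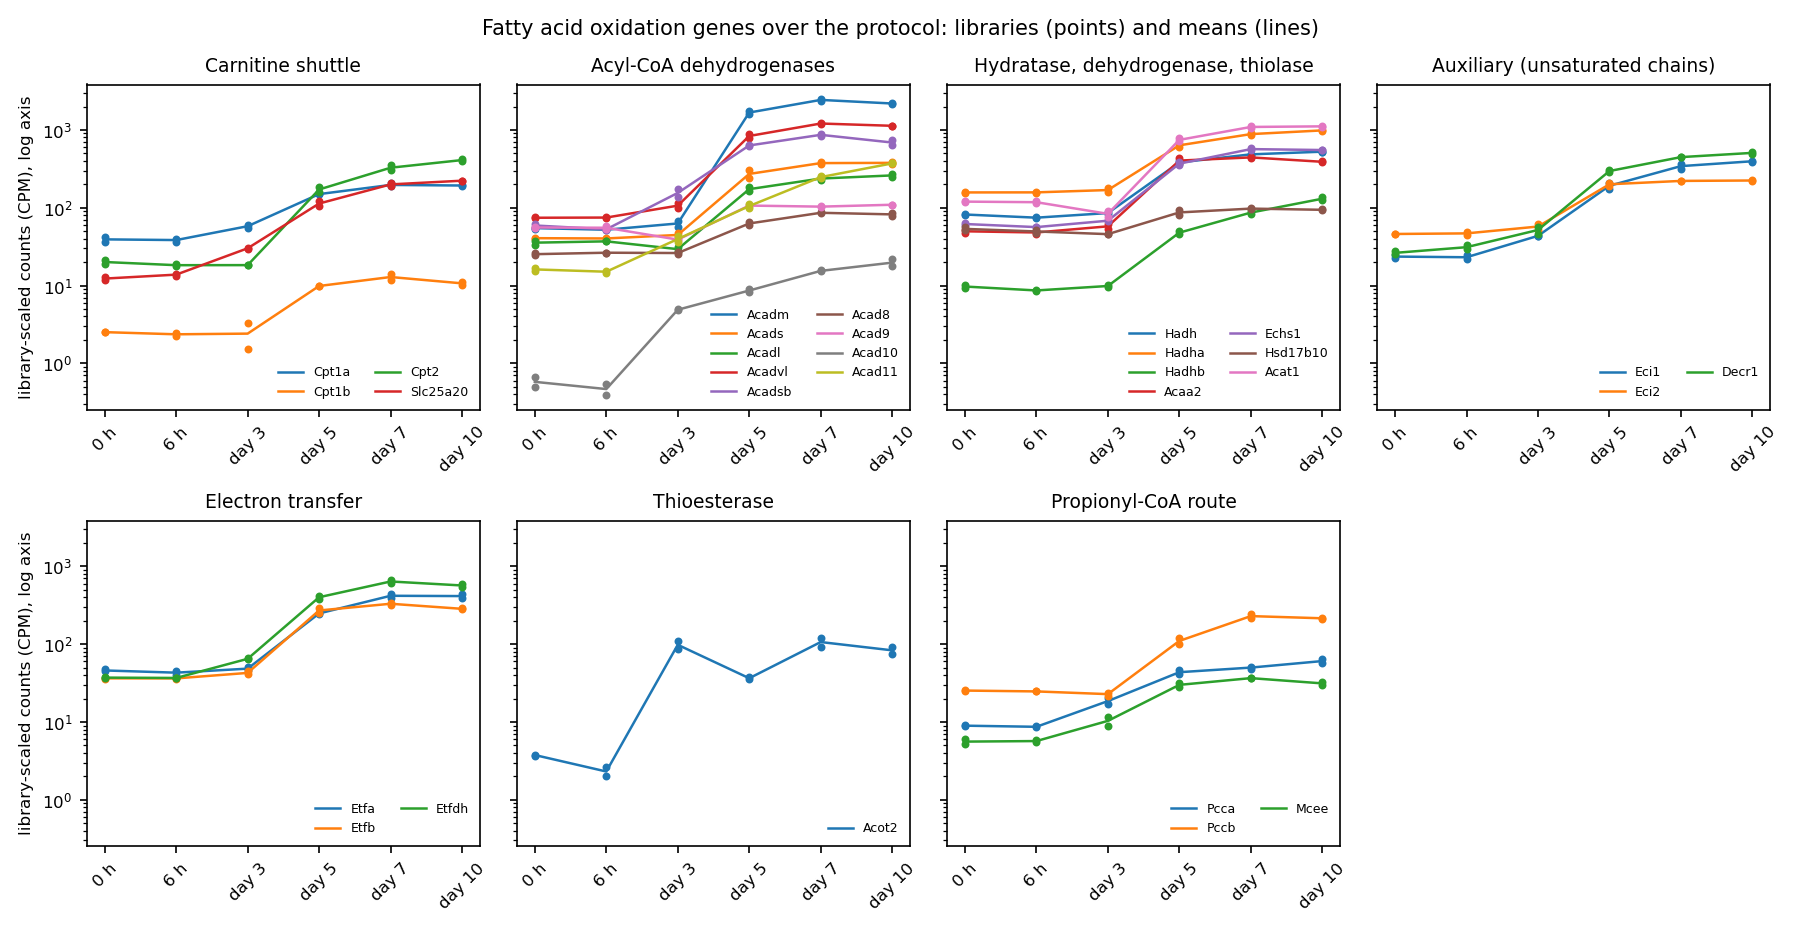
Library-scaled counts (CPM, log axis) of the 30 genes against time point, 1 panel per role; points are single libraries (2 per time point) and lines join their means. Most lines climb between day 3 and day 5, while Acot2 is high on day 3 (86.7 and 109.9 CPM) and lower on day 5 (37.5 and 35.5 CPM).

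The carnitine shuttle loads long acyl chains onto carnitine at the outer membrane, carries them across the inner membrane and hands them back to CoA. All 4 of its genes rose by day 10. Cpt1a, the outer-membrane transferase inhibited by malonyl-CoA and the usual liver-type form, is at chromosome 19, positions 3322334 to 3385733 of GRCm38 in the GENCODE annotation. It measured 36.3 and 42.0 CPM at 0 h, 36.6 and 40.1 at 6 h, 60.1 and 55.6 on day 3, 149 and 151 on day 5, 205 and 188 on day 7 and 195 and 191 on day 10. It rose in 3 steps, at day 3, day 5 and day 7; the 0 h and 6 h libraries overlapped, as did those of day 7 and day 10. Its change from 0 h to day 10 was 2.30 log2 units (SE 0.08, adjusted p = 1.02e-13). Cpt2, the inner-membrane transferase, measured 21.0 and 19.1 CPM at 0 h, 18.9 and 17.6 at 6 h, 18.3 and 18.3 on day 3, 184 and 159 on day 5, 351 and 302 on day 7 and 426 and 393 on day 10. Its libraries up to day 3 lay between 17.6 and 21.0 CPM, and then every later group lay above the one before it. The change of Cpt2 by day 10 was 4.36 log2 units (SE 0.10, adjusted p = 4.93e-16), the largest of the shuttle. Slc25a20, the carnitine-acylcarnitine carrier, measured 11.8 and 12.7 CPM at 0 h, 14.2 and 13.3 at 6 h, 29.5 and 30.6 on day 3, 122 and 105 on day 5, 211 and 188 on day 7 and 223 and 222 on day 10. It was already higher on day 3, by 1.29 log2 units (SE 0.11, adjusted p = 1.19e-08), and by day 10 the change was 4.18 log2 units (SE 0.10, adjusted p = 5.45e-16). Cpt1b, the muscle-type transferase, had the lowest counts of the 4 as deposited, at 2.52 ± 0.0268 CPM at 0 h and 10.7 ± 0.630 on day 10 (mean ± SD, n = 2). Of its 50-base stretches 93.0% also occur in the overlapping same-strand gene Gm44502, so its counts are uncertain. Gm44502 itself was listed at 22.5 ± 0.214 CPM at 0 h and 46.5 ± 3.96 on day 10 (mean ± SD, n = 2), several times the level of Cpt1b.

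The proportions within the shuttle differed between time points. Per length of transcript, Cpt1a stood to Cpt2 as 1.07 ± 0.18 at 0 h, 1.73 ± 0.093 on day 3, 0.479 ± 0.054 on day 5 and 0.258 ± 0.011 on day 10 (mean ± SD of the ratio of RPKM within a library, n = 2). The Cpt1a transcript was thus about level with that of Cpt2 at the start and well below it at the end. Cpt1b, the other outer-membrane form, is not part of this ratio. The ratio of Cpt1a to Cpt1b was 10.5 ± 0.96 at 0 h and 12.2 ± 0.9 on day 10, as the counts were deposited. Reads listed under Gm44502 would lower this ratio if they came from Cpt1b, so no order of the liver-type and muscle-type forms is drawn from it. No test was made on these ratios.

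The acyl-CoA dehydrogenases carry out the first step of each round and differ in the chain length they prefer. All 9 rose by day 10, with log2 fold changes from 0.97 for Acad9 to 5.32 for Acadm. Acadm, the medium-chain enzyme, is at chromosome 3, positions 153922357 to 153944632 on the minus strand. It measured 55.4 and 54.0 CPM at 0 h, 52.8 and 51.4 at 6 h, 68.2 and 57.3 on day 3, 1760.3 and 1586 on day 5, 2476 and 2386 on day 7 and 2124 and 2248 on day 10. The libraries up to day 3 lay close together and far below every library from day 5 on. The step from day 3 to day 5 was 4.74 log2 units (SE 0.10, adjusted p = 6.82e-16), the largest of the 30 genes, and the change over the whole protocol was 5.32 log2 units (SE 0.10, adjusted p = 6.71e-17). Acadvl, the very-long-chain enzyme bound to the inner membrane, measured 72.8 and 75.8 CPM at 0 h, 72.7 and 76.7 at 6 h, 113 and 99.3 on day 3, 886 and 786 on day 5, 1219 and 1199 on day 7 and 1120.3 and 1139 on day 10. It rose at day 3 and far more at day 5, and its change by day 10 was 3.93 log2 units (SE 0.09, adjusted p = 3.51e-16). Exons of Acadvl overlap those of Dvl2 on the opposite strand over 42.9% of their bases, and Dvl2 itself fell by 0.71 on the log2 scale from 0 h to day 10.

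Acadl and Acads, the long-chain and short-chain enzymes, rose 7.33-fold (SE 0.09 in log2 units) and 9.29-fold (SE 0.10 in log2 units) by day 10. Acadsb, which acts on short branched chains from isoleucine, was one of the early risers. It measured 56.2 and 62.0 CPM at 0 h, 51.6 and 53.9 at 6 h, 172 and 138 on day 3, 616 and 647 on day 5, 832 and 897 on day 7 and 638 and 738 on day 10. It was higher in both day 3 libraries than in any earlier one, peaked on day 7, and was lower again on day 10 (-0.33 log2 units, SE 0.10, adjusted p = 0.0181 against day 7). That last fall lost its call without day 7 replicate 2 (adjusted p = 0.139) or day 10 replicate 1 (adjusted p = 0.197). Acad11, a less studied member of the family, measured 15.3 and 16.9 CPM at 0 h, 15.5 and 14.6 at 6 h, 42.9 and 36.3 on day 3, 112 and 97.8 on day 5, 253 and 242 on day 7 and 371 and 371 on day 10. It rose at every step after 6 h and was still rising in the last one, by 0.59 log2 units (SE 0.08, adjusted p = 4.7e-05) from day 7 to day 10.

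Acad10 was scarce throughout. It measured 0.661 and 0.494 CPM at 0 h, 0.390 and 0.543 at 6 h, 4.83 and 4.93 on day 3, 9.07 and 8.17 on day 5, 15.2 and 15.7 on day 7 and 21.8 and 17.6 on day 10, which at 0 h was 8 or 9 counts in a library, so its fold change is imprecise. It had already risen on day 3, in the phase with BMP2 alone, by 3.08 log2 units (SE 0.28, adjusted p = 4.82e-08). At so few counts that SE, which is derived from the test, understates the counting error. Acad10 shares 20.4% of its 50-base stretches with Acad12, its neighbour in the family, which rose by 4.46 by day 10. At the low end, Acad9, best known as an assembly factor of respiratory complex I, measured 55.4 and 56.1 CPM at 0 h, 57.4 and 53.2 at 6 h, 38.5 and 39.3 on day 3, 106 and 107 on day 5, 102 and 104 on day 7 and 110.0 and 108 on day 10. It was lower on day 3 than in any other group, and the groups of day 5, day 7 and day 10 lay close to each other. Acad8, the isobutyryl-CoA enzyme of valine breakdown, rose 3.25-fold (SE 0.09 in log2 units) by day 10.

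**Figure D2:**
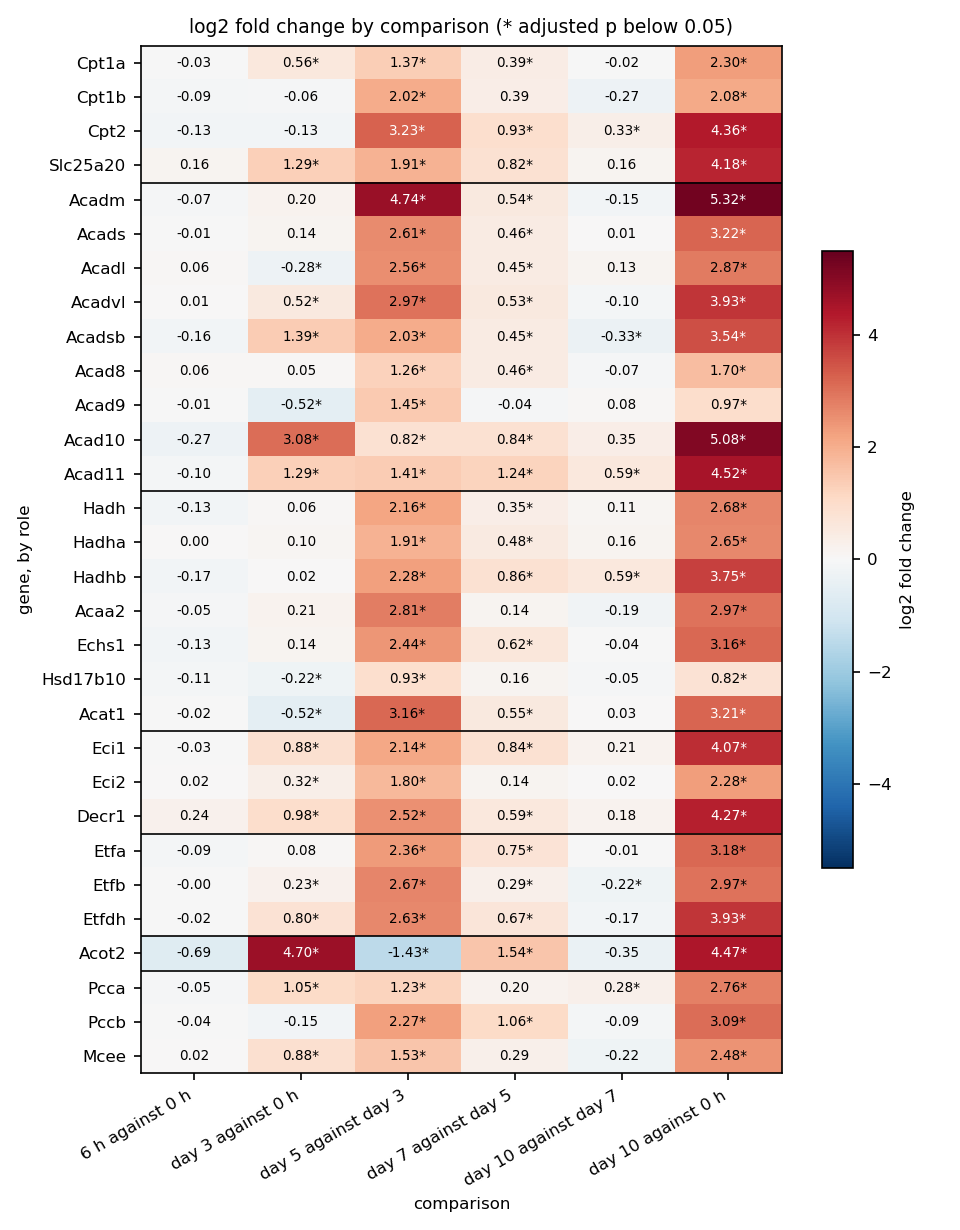
log2 fold change of each of the 30 genes (rows, by role) in each of 6 comparisons (columns), coloured from blue (lower) to red (higher); an asterisk marks an adjusted p below 0.05. The column for day 5 against day 3 is red in 29 rows and blue for Acot2 (-1.43), and the column for 6 h against 0 h holds no asterisk.

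Hydration, the second dehydrogenation and cleavage are done by single enzymes for short chains and by the trifunctional protein for long ones. All 7 genes of these steps rose by day 10, with a median log2 fold change of 2.97. Hadha and Hadhb encode the alpha and beta subunits of the trifunctional protein, and their starts on chromosome 5 in the GENCODE annotation have 85 bases between them, on opposite strands. The RefSeq starts on which the printed windows rest are at other positions. Hadha measured 158 and 156 CPM at 0 h, 157 and 158 at 6 h, 177 and 161 on day 3, 665 and 603 on day 5, 913 and 854 on day 7 and 996 and 976 on day 10. Hadhb measured 9.32 and 10.1 CPM at 0 h, 8.65 and 8.63 at 6 h, 9.59 and 10.1 on day 3, 50.1 and 45.5 on day 5, 90.7 and 82.4 on day 7 and 124 and 137 on day 10. Neither was called at day 3, although Hadha was with upper-quartile factors (adjusted p = 0.0200), and both rose at day 5. Hadhb rose again from day 7 to day 10, by 0.59 log2 units (SE 0.08, adjusted p = 5.94e-05). For Hadha that last change was 0.16 log2 units (SE 0.07, adjusted p = 0.124), and the difference between the 2 genes was not tested. The ratio of Hadha to Hadhb per length was 8.78 ± 0.54 at 0 h and 4.10 ± 0.33 on day 10. Hadhb shares 61.5% of its 50-base stretches with the pseudogene Gm13910, so its level may be understated where reads that match both places were left out; how the authors counted such reads is not given in the sources used here.

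Acat1, the mitochondrial acetoacetyl-CoA thiolase, moved down before it moved up. It measured 119 and 120.4 CPM at 0 h, 115 and 121 at 6 h, 91.1 and 75.8 on day 3, 776 and 714 on day 5, 1109.9 and 1074 on day 7 and 1091 and 1132 on day 10. Both day 3 libraries lay under all 0 h and 6 h libraries (-0.52 log2 units, SE 0.09, adjusted p = 4.71e-05), and both day 5 libraries lay far above them (3.16 log2 units, SE 0.09, adjusted p = 2.64e-14 from day 3). Hadh, the short-chain hydroxyacyl-CoA dehydrogenase, Echs1, the short-chain hydratase, and Acaa2, the thiolase of medium chains, rose 6.42-fold (SE 0.07 in log2 units), 8.93-fold (SE 0.07 in log2 units) and 7.83-fold (SE 0.09 in log2 units) by day 10. Hsd17b10, an X-linked dehydrogenase that also serves isoleucine breakdown and mitochondrial RNase P, measured 55.9 and 51.0 CPM at 0 h, 51.1 and 48.0 at 6 h, 46.0 and 45.4 on day 3, 93.6 and 80.3 on day 5, 98.0 and 96.8 on day 7 and 95.8 and 92.2 on day 10. It rose least of the 30 genes, by 0.82 log2 units (SE 0.08, adjusted p = 1.11e-07), and its day 3 libraries were the lowest.

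Eci1, Eci2 and Decr1 rearrange the double bonds of unsaturated chains so that they can enter the cycle, and all 3 rose at day 3 and again at day 5. Decr1, the dienoyl-CoA reductase, measured 25.2 and 27.4 CPM at 0 h, 29.4 and 32.8 at 6 h, 57.2 and 46.3 on day 3, 308 and 285 on day 5, 449.7 and 445 on day 7 and 488 and 526 on day 10. Its change by day 10 was 4.27 log2 units (SE 0.10, adjusted p = 6.69e-16). Eci1 and Eci2, the enoyl-CoA isomerases, rose 16.8-fold (SE 0.10 in log2 units) and 4.87-fold (SE 0.08 in log2 units), and the ratio of Eci1 to Eci2 per length went from 0.756 ± 0.04 at 0 h to 2.61 ± 0.058 on day 10. Eci2 was no longer called at day 3 without day 3 replicate 1 (adjusted p = 0.0776).

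Electrons from the first step pass to the electron transfer flavoprotein, made of the products of Etfa and Etfb, and on to ubiquinone through Etfdh. Etfdh, the oxidoreductase, measured 36.4 and 38.0 CPM at 0 h, 36.5 and 37.2 at 6 h, 65.8 and 64.0 on day 3, 417 and 387 on day 5, 666 and 614 on day 7 and 547 and 591 on day 10. It rose by 0.80 log2 units (SE 0.08, adjusted p = 1.26e-07) at day 3 and by 3.93 log2 units (SE 0.08, adjusted p = 1.32e-16) by day 10. Over the whole protocol the transcripts of the 2 flavoprotein subunits rose by similar amounts, Etfa 9.03-fold (SE 0.09 in log2 units) and Etfb 7.83-fold (SE 0.08 in log2 units). Their ratio per length was 0.780 ± 0.052 at 0 h, 0.570 ± 0.078 on day 5 and 0.902 ± 0.091 on day 10. Etfb shares 67.3% of its 50-base stretches with Gm45233, which overlaps 53.0% of its exon bases on the same strand. Gm45233 is not among the genes counted. Whether reads in the overlap were left out is not given in the sources used here, so the level of Etfb is uncertain.

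Acot2, the mitochondrial thioesterase that releases free fatty acid from long acyl-CoA, was high early and again late. It is at chromosome 12, positions 83987861 to 83993873 on the plus strand, and measured 3.82 and 3.71 CPM at 0 h, 2.02 and 2.60 at 6 h, 86.7 and 109.9 on day 3, 37.5 and 35.5 on day 5, 122 and 91.5 on day 7 and 92.6 and 74.3 on day 10. The day 3 libraries lay in the range of those of day 7 and day 10, and the day 5 libraries lay below all of these. The change was 4.70 log2 units (SE 0.21, adjusted p = 1e-09) from 0 h to day 3, -1.43 log2 units (SE 0.15, adjusted p = 5.11e-06) from day 3 to day 5 and 1.54 log2 units (SE 0.15, adjusted p = 1.23e-05) from day 5 to day 7. Of its 50-base stretches 24.6% occur in Acot1, its cytosolic paralogue next to it in the genome. Acot1 measured 17.2 and 19.3 CPM at 0 h, 13.2 and 14.8 at 6 h, 59.3 and 40.9 on day 3, 58.7 and 58.7 on day 5, 45.7 and 47.6 on day 7 and 24.0 and 21.6 on day 10; it rose by 1.46 log2 units (SE 0.14, adjusted p = 2.67e-07) at day 3, was not called between day 3 and day 5 (0.23 log2 units, SE 0.13, adjusted p = 0.142), and fell by 1.04 log2 units from day 7 to day 10. The ratio of Acot2 to Acot1 per length was 0.147 ± 0.015 at 0 h, 1.47 ± 0.61 on day 3, 0.441 ± 0.017 on day 5 and 2.59 ± 0.21 on day 10.

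Odd chains and some amino acids end in propionyl-CoA, which propionyl-CoA carboxylase (Pcca and Pccb) and methylmalonyl-CoA epimerase (Mcee) pass on towards the citric acid cycle. The subunits of the carboxylase had unlike values on day 3. Pcca measured 9.10 and 8.84 CPM at 0 h, 8.78 and 8.57 at 6 h, 16.9 and 20.3 on day 3, 41.4 and 46.0 on day 5, 51.5 and 48.6 on day 7 and 57.9 and 63.6 on day 10. Pccb measured 24.9 and 25.8 CPM at 0 h, 24.7 and 24.7 at 6 h, 23.8 and 21.8 on day 3, 120.2 and 100.3 on day 5, 245 and 215 on day 7 and 217 and 213 on day 10. At day 3 Pcca was higher (1.05 log2 units, SE 0.12, adjusted p = 1.03e-06) and Pccb was not called (-0.15 log2 units, SE 0.10, adjusted p = 0.206), and the ratio of Pcca to Pccb per length went from 0.314 ± 0.015 at 0 h to 0.725 ± 0.14 on day 3 and 0.250 ± 0.02 on day 10. Mcee rose 5.58-fold (SE 0.15 in log2 units) by day 10.

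**Figure D3:**
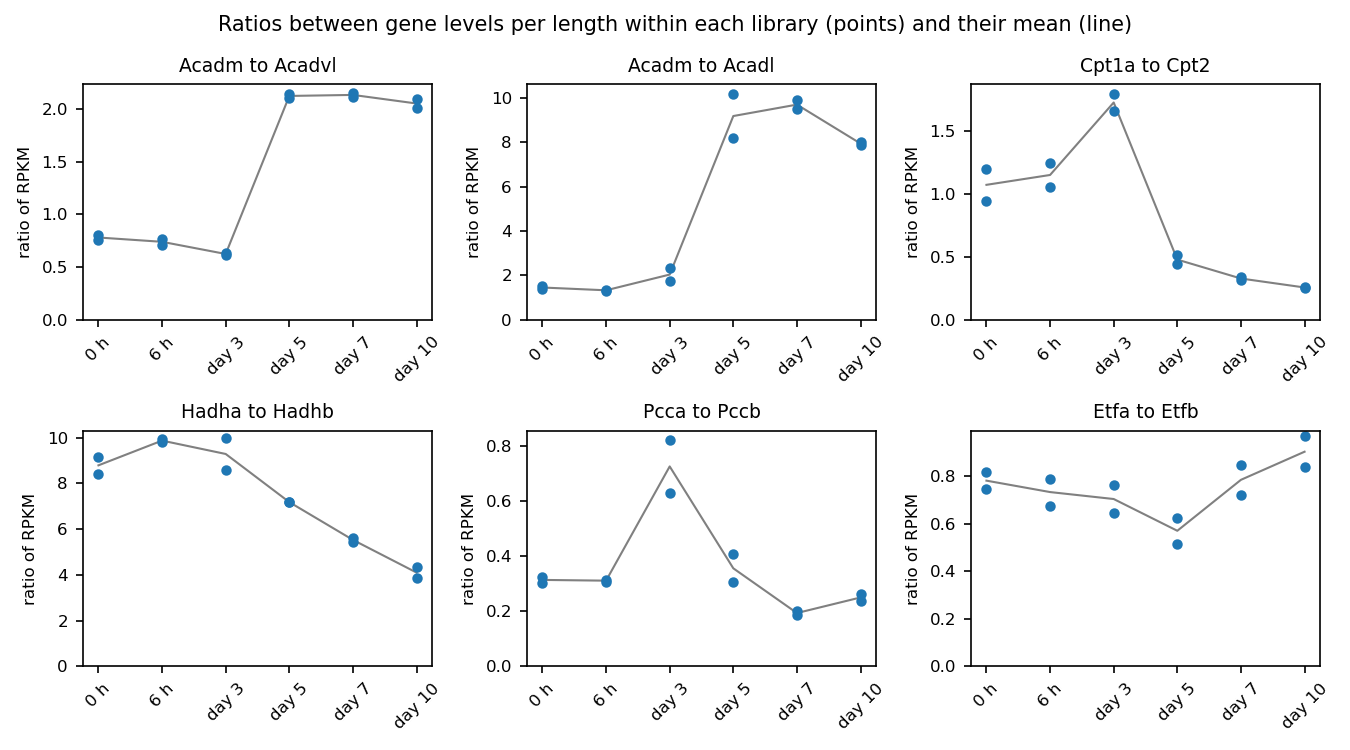
Ratio of the levels per length (RPKM) of 2 genes within each library, against time point, for 6 pairs; points are libraries, the line joins the means, and each vertical axis starts at 0 with its own scale. Cpt1a to Cpt2 falls from 1.07 at 0 h to 0.258 on day 10, Acadm to Acadvl rises from 0.782 to 2.05, and Etfa to Etfb stays between 0.515 and 0.966 in every library.

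The order of the genes by level per length changed with time. At 0 h the highest were Hsd17b10 (58.6 ± 3.79 RPKM), Hadh (45.7 ± 1.04), Echs1 (41.4 ± 1.11), Hadha (41.0 ± 0.287) and Etfb (40.3 ± 1.01). Echs1, Hadha and Etfb lay within their spread of each other, and Acadm was at place 11 with 26.5 ± 0.505 RPKM. On day 10 Acadm was first with 1060.2 ± 42.8 RPKM, ahead of Acadvl with 516 ± 6.07, and then Echs1 (369.8 ± 1.90), Eci1 (363 ± 6.16) and Acat1 (329.6 ± 8.60). Hsd17b10 was then at place 20 with 103 ± 2.84 RPKM. Acadm and Acadvl were apart from the rest and from each other by far more than the spread of their libraries, while Echs1 and Eci1 differed by little more than the spread of Eci1. Acadm alone went from 4.53% and 4.37% of the counts of the 30 genes at 0 h to 19.2% and 18.8% on day 5.

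Step by step, none of the 30 genes was called after the first 6 h with BMP2, by edgeR or by DESeq2. Of all genes, edgeR called 0.746% in that comparison, in either direction. At an unadjusted p below 0.05, edgeR gave 1 gene (Decr1, adjusted p = 0.72) and DESeq2 gave 2. The phase with BMP2 alone, read as day 3 against 0 h, split the list: 14 genes were higher (33.1% of all genes were) and 4 were lower (35.0% of all genes). Another 12 were not called, among them Acadm, Cpt2, Hadha, Hadhb and Echs1. The share higher was thus not far above the background, and 6 genes were at least 2-fold higher (13.9% of all genes): Slc25a20, Acadsb, Acad10, Acad11, Acot2 and Pcca. The 4 lower genes were Acadl, Acad9, Hsd17b10 and Acat1. Acadl measured 37.6 and 33.5 CPM at 0 h, 37.0 and 36.9 at 6 h and 27.4 and 31.2 on day 3, without overlap of the day 3 libraries with the earlier ones. The calls of Acadl and Hsd17b10 were lost without 0 h replicate 1 (adjusted p = 0.158 and 0.214) and without day 3 replicate 1 (0.153 and 0.0667), and that of Hsd17b10 also without day 3 replicate 2 (0.0852). Etfb lost its rise without either 0 h library or without day 3 replicate 2 (adjusted p from 0.0584 to 0.158). Without day 3 replicate 2, Acadm (adjusted p = 0.00468) and Acaa2 (0.0078) were called higher, and Acaa2 also without either day 5 library (0.0400 and 0.0346). Upper-quartile factors, another scaling of the libraries, gave 20 higher and 2 lower genes on day 3. With them Acadm (adjusted p = 0.00658), Acads (0.0463), Hadh (0.0338), Hadha (0.0200), Acaa2 (0.00537) and Echs1 (0.00513) were called higher, and the calls of Acadl (0.130) and Hsd17b10 (0.253) were lost. Among all genes the same scaling moved those called higher from 4220 to 4856 and those called lower from 4462 to 3930.

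Between day 3 and day 5, the interval in which rosiglitazone entered, 29 of the 30 genes rose (34.0% of all genes did), and Acot2 fell (31.0% of all genes did). At least 2-fold rises were seen in 27, against 15.7% of all genes. The median log2 change was 2.15 for the 30 genes and 0.01 for all genes. In every gene apart from Acot2 the lower day 5 library lay above the higher day 3 library. The share of all genes separated in this way was not counted, so nothing particular to the list is drawn from it. From day 5 to day 7, 23 genes rose further (19.0% of all genes) and none fell (18.8% of all genes did); 3 rose at least 2-fold (4.93% of all genes), namely Acad11 (1.24), Acot2 (1.54) and Pccb (1.06), in log2 units. Etfb lost this rise without day 5 replicate 2 (adjusted p = 0.0867). Without day 5 replicate 1, Acaa2 (adjusted p = 0.0454), Hsd17b10 (0.0196) and Mcee (0.0377) were called higher, and Cpt1b and Mcee were without either day 3 library (0.0368 to 0.0384). The list then levelled off. From day 7 to day 10, 4 genes were higher (15.1% of all genes) and 2 were lower (13.2% of all genes), shares no larger than the background. The 4 were Cpt2, Acad11, Hadhb and Pcca, and the 2 were Acadsb and Etfb. Cpt2 lost its call without day 7 replicate 2 (adjusted p = 0.132) or day 10 replicate 1 (0.0881). Pcca and Etfb sat at the threshold and were lost when any 1 library of 0 h, 6 h, day 7 or day 10 was left out, with adjusted p up to 0.275 for Pcca without day 10 replicate 2 and up to 0.203 for Etfb without day 7 replicate 2. Acad11 and Hadhb kept their calls without any 1 library. Eci1 was called higher without day 7 replicate 1 (adjusted p = 0.0336) and Acot2 lower without day 7 replicate 2 (0.0174).

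Whether the step from day 3 to day 5 differed from the step from 0 h to day 3 was tested as a difference of log2 changes in the same fit. The earlier step covers 3 days and the later one 2, and both use the day 3 libraries. The later step was larger in 26 genes (31.7% of all genes) and smaller in 2 (28.5% of all genes). The 26 ran from 0.62 for Slc25a20 to 4.54 for Acadm, in log2 units. The 2 were Acot2 (-6.13 log2 units, SE 0.29, adjusted p = 3.19e-09) and Acad10 (-2.26 log2 units, SE 0.40, adjusted p = 0.000118). In Acad11 and Pcca the difference was 0.11 (95% interval -0.29 to 0.51) and 0.19 (-0.30 to 0.67), so these 2 genes rose in both steps and a difference of the size seen in Acadm lies outside both intervals. Without day 3 replicate 2, Acadsb (adjusted p = 0.117) and Mcee (0.428) were no longer called; Mcee was also lost without 0 h replicate 2 (0.147) or day 5 replicate 1 (0.0990). As a share of the log2 rise from 0 h to day 10, the median gene had covered 5.80% on day 3, 82.4% on day 5 and the whole of it on day 7. The highest mean was on day 7 for 15 genes and on day 10 for the other 15.

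Promoter windows were found for 25 of the 30 genes, 26 windows in all, and motifs were searched on both strands. The core motif AGGTCA was in 6 of the 26 windows, those of Cpt1a, Acadm, Acadvl, Echs1 and Pcca. It was in 16.3% of all 32851 RefSeq windows and 12.4% of those of tested genes. The PPAR and RXR element, 2 copies of AGGNCA with 1 base between, was in none (0.381% of all windows, 0.212% of those of tested genes), and neither was TCAAGGTCA, bound by estrogen-related receptors (0.423% and 0.274%); both can contain AGGTCA. The GC box GGGCGG was in 19 of the 26 windows, against 35.7% of all windows and 62.1% of those of tested genes. It occurs 4 times in the Hadhb window printed above. The CCAAT box was in 13 of the 26 windows, of 12 genes, Acot2 among them (37.4% of all windows, 38.1% of those of tested genes). TTGCNNAA, a C/EBP motif, was in Acads, Acadsb and Hsd17b10 (10.8% of all windows, 8.44% of those of tested genes). The NRF1 palindrome was in Acad10 and Etfdh (0.971% and 2.05%), and TATAAA was in none (13.6% and 7.33%). These matches describe letters in a window and do not show binding.

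The genes around the pathway were counted with the same test, day 10 against 0 h, in which 42.8% of all genes were called higher and 39.9% lower. Of 17 tested genes of peroxisomal oxidation, which shortens very long chains before they reach mitochondria, 17 rose, with a median log2 fold change of 4.08. Acaa1b, a peroxisomal thiolase, rose by 10.86 log2 units (SE 0.16, adjusted p = 3.53e-18). Acox2, an oxidase of branched chains, rose by 8.10 log2 units (SE 0.34, adjusted p = 1.82e-12) from 1 and 4 counts at 0 h. The change of Acox2 is imprecise at so few counts, and its SE understates the counting error. Abcd2, a peroxisomal acyl-CoA transporter, was listed at 0 counts in the 0 h libraries. Set against 3 counts for that group, the limit used here for a count of 0, it rose at least 313-fold. Of 19 other mitochondrial dehydrogenases and later steps, 18 rose and 1 fell (median 2.75), led by Acad12, Mccc1 of leucine breakdown (4.30 log2 units, SE 0.15, adjusted p = 4.64e-14) and Etfrf1, a regulator of the electron transfer flavoprotein (4.29 log2 units, SE 0.09, adjusted p = 1.1e-16).

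Supply and control of the pathway moved less uniformly. Of 12 tested genes of carnitine and acyl-CoA supply, 6 rose and 4 fell (median 0.64). Acsl1, which activates long-chain fatty acids, measured 27.9 and 35.0 CPM at 0 h, 22.8 and 26.0 at 6 h, 57.7 and 42.9 on day 3, 2079.7 and 1717 on day 5, 3804 and 3869.9 on day 7 and 3681 and 3439 on day 10. It rose by 6.82 log2 units (SE 0.17, adjusted p = 2.54e-13), most of it between day 3 and day 5. Crat, carnitine acetyltransferase, rose by 4.01 log2 units (SE 0.10, adjusted p = 4.89e-16) and Slc22a5, the carnitine importer, by 2.59 log2 units (SE 0.10, adjusted p = 3.1e-13). Malonyl-CoA blocks the outer-membrane transferase, and of 8 tested genes that set or sense it 5 rose and 1 fell (median 0.98). Acacb, which makes malonyl-CoA at the mitochondrial surface, and Mlycd, which breaks it down, rose together, by 8.86 log2 units (SE 0.18, adjusted p = 1.06e-16) and 4.65 log2 units (SE 0.21, adjusted p = 9.12e-11). Prkab2, a subunit of AMP-activated kinase, rose by 2.11 log2 units (SE 0.14, adjusted p = 2.87e-10).

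Of 17 tested transcriptional regulators 12 rose and 2 fell (median 2.00). Pparg, the target of rosiglitazone, had 2 counts in each 0 h library and measured 0.147 and 0.124 CPM at 0 h, 1.76 and 2.33 at 6 h, 46.1 and 25.3 on day 3, 195 and 173 on day 5, 254 and 239 on day 7 and 336 and 342 on day 10. Its libraries were thus higher on day 3, in the phase with BMP2 alone, than at 0 h. Ppara, the receptor best known for control of fatty acid oxidation, had 0 counts at 0 h and on day 3 and measured 5.65 and 6.38 CPM on day 5, 32.5 and 38.2 on day 7 and 26.6 and 26.0 on day 10, which is at least 261-fold above 0 h. Klf15, a metabolic regulator, had 0 counts at 0 h and measured 8.32 and 11.2 CPM on day 3, 3.60 and 3.40 on day 5, 6.30 and 5.31 on day 7 and 27.8 and 24.0 on day 10, at least 256-fold above 0 h. Its libraries were higher on day 3 than on day 5.

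Of 7 tested genes of uncoupling and redox 5 rose and 1 fell (median 4.87). Ucp3, a mitochondrial carrier linked to fatty acid oxidation, had 1 count over both 0 h libraries and 2781 on day 10, a ratio of 3421 (95% exact counting interval 613 to 135163). Angptl4, a secreted inhibitor of lipoprotein lipase, rose by 9.53 log2 units (SE 0.23, adjusted p = 7.98e-14) and Pdk2, a kinase that restrains pyruvate oxidation, by 5.44 log2 units (SE 0.16, adjusted p = 6.24e-15). Ucp1, which uncouples respiration in brown fat, drew a single count, in day 10 replicate 2. Acsl6, Esrrg, Hnf4a and Acot4 of these lists are not analysed here.

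**Figure D4:**
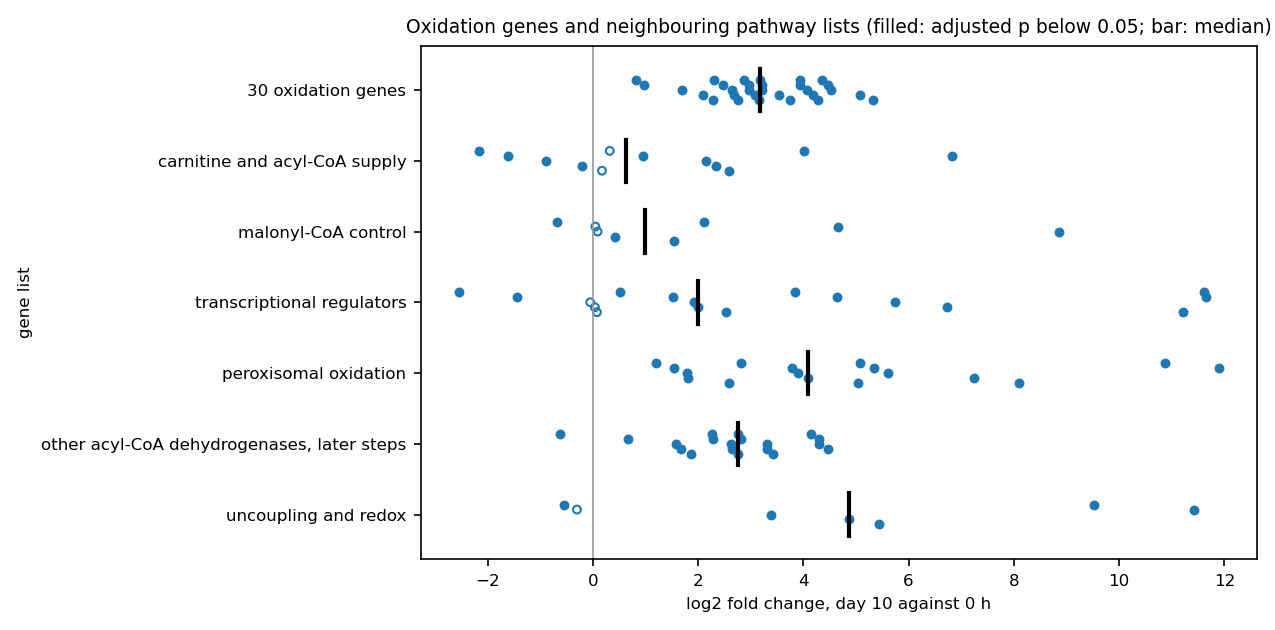
log2 fold change from 0 h to day 10 for the 30 oxidation genes and for the tested genes of 6 surrounding lists; filled points have an adjusted p below 0.05, open points do not, and the bar is the median. The 30 genes all lie right of 0 with a median of 3.17, while the lists of supply and of malonyl-CoA control straddle 0 (medians 0.64 and 0.98); points of genes with 0 counts at 0 h depend on the prior count.

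Cell type markers also changed over the protocol, in unlike directions and at unlike times. The 10 white adipocyte markers, all in the table, summed to 47.4 to 54.7 CPM at 0 h, 358 to 383 on day 3, 4989 to 5664 on day 5 and 31388 to 33096 on day 10. The 8 mesenchymal markers summed to 9220.2 to 9597 CPM at 0 h, 10516 to 15224 on day 3 and 2984 to 3324 on day 10. Of these 8 genes 3 were called higher and 3 lower on day 10 than at 0 h, with a median log2 fold change of -0.04. The 3 proliferation markers summed to 2539.5 to 2576 CPM at 0 h, 35.4 to 56.4 on day 3 and 23.5 to 28.5 on day 10. The adipocyte sum was still climbing from day 7 (18012 to 20093) to day 10, whereas the sum of the oxidation genes was not. The part of these shifts in cell state in the rise of the oxidation genes was not tested. Among tissues known for high fatty acid oxidation, the 4 muscle markers in the table summed to at most 2.41 CPM in any library and Apoa1, the 1 hepatocyte marker in the table, to at most 0.536. The 3 cardiomyocyte markers summed to 112 to 119 CPM at 0 h, nearly all of it Tnnt2, and to at most 0.179 on day 10. The 7 brown and beige adipocyte markers summed to 0.881 to 1.24 CPM at 0 h and 477 to 497 on day 10. Most of the day 10 sum was Cidea and Cox8b, which had 0 counts at 0 h and 5592 and 5251 over both day 10 libraries. Of the 5 tested, 4 were called higher and 0 lower on day 10 than at 0 h, against 42.8% and 39.9% of all genes. Among these 5, Cidea, Cox8b and Cox7a1 had 0, 0 and 2 counts over both 0 h libraries. They entered the test through later groups and could hardly have been called lower, so the count lends no support of its own. Ucp1 was at 0 in 11 of the 12 libraries. The 6 epithelial markers summed to 837 to 849 CPM at 0 h, 103 to 149.8 on day 3, 599 to 717 on day 5 and 905 to 964 on day 10, mostly the keratin gene Krt8 at 0 h and Krt14 on day 10. Of the 5 tested, 2 were called higher and 2 lower on day 10 than at 0 h. Among them Cdh1, the epithelial cadherin that the name of the line refers to, was at most 1.09 CPM in any library. Markers of leukocytes and endothelium summed to at most 8.47 and 3.98 CPM.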

How the data were processed

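The values are deposited raw counts per gene, made by the authors for the 12 libraries; gene lengths came with them. Per the labels' protocols, RNA from 2 independent experiments was used, 200 ng per library with a stranded total RNA kit, and the sequenced RNA is also called poly-A+. Per the submitters' processing notes, STAR was used with mm10. Which tool and annotation gave the counts is not given in the sources used here. Entrez identifiers were matched to symbols through RefSeq (17045 of 17090), and 4 more through GENCODE.

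The model was edgeR's (version 4.0.16, R 4.3.3), with 1 mean per time point over all 12 libraries (6 residual degrees of freedom), with TMM factors, filterByExpr (minimum count 10), the robust quasi-likelihood F test and Benjamini-Hochberg adjustment over 12740 genes, called at 0.05. The test was tried on simulated data for the comparison of day 10 with 0 h only, with few genes changed. In the real data 82.7% of genes were called in that comparison, so the trial does not check the scaling under such broad change. CPM is scaled by the TMM library size, and RPKM further by the deposited gene length. P-values weigh a difference between time points against the spread between the libraries of a time point. That spread is pooled over time points and moderated across genes. Counting intervals and floors cover counting error only. The genes, lists and tests were chosen with earlier results of these data known. All 30 genes are named, and of each surrounding list the 3 called genes with the largest change at day 10; 1 further list is not reported here. Alternatives were median-of-ratios and upper-quartile factors, no filter, a mean of at least 1 CPM, a prior count of 2, DESeq2 1.42.0, a replicate block, only the libraries compared, and each library left out.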

Additional observations from a re-analysis of the deposited data

Results flagged for a closer look

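The change from day 3 to day 5 differed from the change from 0 h to day 3 in 28 of the 30 genes, by a test of the difference itself in edgeR. Of all genes, 60.2% were called in that test. The change was larger in 26 of the 30 (31.7% of all genes) and smaller in 2, Acot2 and Acad10 (28.5% of all genes). The earlier interval is 3 days with BMP2 alone and the later one covers the first 2 days with rosiglitazone added, so agent, length of the interval and time in culture cannot be told apart.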

How the results depend on the processing

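With 2 libraries per time point, a fit that leaves out 1 library assumes that the remaining one varies like the others. All 30 genes stayed higher on day 10 than at 0 h under each alternative run, and 29 stayed higher and 1 lower on day 5 against day 3 without any 1 library. Genes higher on day 3 against 0 h numbered 14, but 20 with upper-quartile factors. Genes lower in that comparison numbered 4, but 2 with upper-quartile factors, 2 with only the libraries compared, and 2 to 4 without 1 library. Genes higher on day 10 against day 7 numbered 4, but 7 with only the libraries compared and 2 to 4 without 1 library. Genes lower on day 10 against day 7 numbered 2, but 1 with DESeq2 and 0 to 2 without 1 library. The cause of these shifts was not tested. All other counts stayed within 1.5 times the value reported. Upper-quartile factors moved the median of all genes in the difference between steps from 0.06 to -0.13 on the log2 scale.

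Libraries with the same replicate number did not deviate together: over 15 pairs of time points the correlation of their deviations ran from -0.0913 to 0.193, with 1 pair over 0.1. The labels used here do not say whether libraries with the same number came from the same independent experiment. Weak correlations cannot decide it, since a shared experiment need not leave a common deviation. With the replicate block, 15 genes were higher and 4 lower on day 3 against 0 h (Acaa2 added), 5 higher and 2 lower on day 10 against day 7 (Eci1 added), and all 30 higher on day 10 against 0 h; it changed no other call.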
